A study of Mus musculus with 13 samples.

Results

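The 13 aortas of this series carried unequal amounts of adipocyte RNA, and the 4 with the most were compared with the 4 with the least. Each aorta was scored by the mean log2 CPM (counts scaled to library size, with TMM normalization) of Plin1, Adipoq and Cidec, which encode the perilipin that coats the fat droplet, the hormone adiponectin, and a protein that enlarges droplets. The 8 aortas at the ends of this score are called adipose-rich and adipose-poor, and the 5 between them are called middle. The aortas were selected on these measured values of the same libraries, so every difference between them is a description and carries no test. Whether a difference reflects more adipocytes or more RNA per adipocyte cannot be told apart in bulk tissue.

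All 13 aortas came from ApoE-/- mice, which lack apolipoprotein E and tend to atherosclerosis, and all mice received angiotensin II (AngII) from a subcutaneous pump, which produces abdominal aortic aneurysms in this strain. The mice were injected weekly through the tail vein with an empty adenovirus (Ad-sham, 6 aortas) or with an adenovirus carrying mouse Fam3a (Ad-FAM3A, 7 aortas). The paper names the construct with the EF1A promoter, which is not restricted to 1 cell type, and its methods also name a pAd/CMV vector. No mouse without AngII or without a virus is among the 13. Each aorta is 1 library from 1 sample of tissue. The sex of the sequenced mice and how much fat was left on each aorta at dissection are not given in the sources used here.

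Fat lies against the outer wall of the aorta as perivascular adipose tissue. Along the thoracic aorta of the mouse it resembles brown fat, whose many mitochondria burn fatty acids and release heat through the uncoupling protein UCP1, and along the abdominal aorta it is closer to white fat, which stores triglyceride in 1 large droplet per cell and secretes leptin and adiponectin. Both kinds of adipocyte are fed by capillaries whose endothelium takes up fatty acids, so a piece of fat on an aorta brings adipocyte, mitochondrial and capillary transcripts with it.

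The targeted gene was examined first. Fam3a was at 17.9 to 30.3 CPM in the Ad-sham aortas and at 18.5 to 29.8 CPM in the aortas labelled Ad-FAM3A, so its RNA gave no check of the virus label. Total counts on genes were between 14481179 and 19797407 per aorta, and 3 counts, the limit that a count of 0 allows, corresponded to 0.152 to 0.207 CPM, which covers counting error only. Libraries stood apart through other tissues. Ad-FAM3A6, an adipose-poor aorta, held immunoglobulin genes at 3.41% of its counts, and lymphocyte transcripts, and Ad-sham3 was the adipose-rich aorta with kidney transcripts, at a mean of 3.38 log2 CPM over the kidney genes against −2.02 to −1.05 in the other 3. Kidney transcripts were also present in Ad-sham6 and Ad-FAM3A3 of the adipose-poor group, at 4.64 and 4.99. Cardiac muscle transcripts were highest in adipose-rich Ad-sham1, at a mean of 5.48 over the cardiac genes, followed by adipose-poor Ad-FAM3A6 at 5.01 and adipose-rich Ad-sham3 at 3.99, with 1.66 to 2.73 in the other 10 aortas. Of the list medians given below, those that moved by over 1.5 times without Ad-FAM3A6 and Ad-sham3 are also given without both.

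Promoter sequences of 4 genes are shown because their transcripts define the axis or its main branches: Adipoq and Cidec from the score, Fasn from fatty acid synthesis, and Ucp1 from brown fat. Each is the 250 bases before the transcription start in RefSeq on GRCm38.p6, read in the direction of the gene. Adipoq was read from chr16:23146286-23146535 on the plus strand, Cidec from chr6:113435761-113436010 on the minus strand, Fasn from chr11:120824548-120824797 on the minus strand, and Ucp1 from chr8:83290098-83290347 on the plus strand. Capitals mark matches on either strand to the letters AGGTCA, a site shared by PPAR and RXR receptors, TTGCNNAA, the core bound by C/EBP factors, TATAAA, and CCAAT.
Adipoq: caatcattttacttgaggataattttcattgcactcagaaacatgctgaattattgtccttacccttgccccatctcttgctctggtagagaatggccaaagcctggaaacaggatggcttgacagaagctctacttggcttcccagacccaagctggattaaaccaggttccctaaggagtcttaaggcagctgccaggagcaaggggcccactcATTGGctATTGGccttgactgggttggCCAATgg
Cidec: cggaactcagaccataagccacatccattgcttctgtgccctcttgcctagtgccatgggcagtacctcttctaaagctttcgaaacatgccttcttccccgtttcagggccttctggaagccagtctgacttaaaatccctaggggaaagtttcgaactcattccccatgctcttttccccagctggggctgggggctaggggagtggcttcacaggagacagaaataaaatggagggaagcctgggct
Fasn: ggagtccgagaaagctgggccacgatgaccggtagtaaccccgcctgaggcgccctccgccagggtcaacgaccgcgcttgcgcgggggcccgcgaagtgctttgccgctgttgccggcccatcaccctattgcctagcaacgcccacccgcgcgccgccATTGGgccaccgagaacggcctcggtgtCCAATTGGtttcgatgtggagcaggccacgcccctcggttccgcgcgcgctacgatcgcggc
Ucp1: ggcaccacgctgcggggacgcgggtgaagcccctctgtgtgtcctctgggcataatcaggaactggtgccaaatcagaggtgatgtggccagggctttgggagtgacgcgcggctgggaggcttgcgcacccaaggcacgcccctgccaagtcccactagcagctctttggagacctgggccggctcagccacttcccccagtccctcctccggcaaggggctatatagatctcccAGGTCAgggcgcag
The Adipoq and Fasn windows each held 3 CCAAT matches, 2 of which overlap in Fasn, the Ucp1 window held 1 AGGTCA match, and the Cidec window held none. RefSeq lists a second Cidec start, whose window (chr6:113434765-113435014) held 1 TTGCNNAA match, and the Plin1 window, of the third gene of the score, held 2. AGGTCA occurred in 14.02% of the 32851 promoter windows of the reference. The other shares are of genes, counted where any window of the gene held a match. AGGTCA matched in 13.3% of 11479 genes tested, and in 60 of 302 genes (19.9%) that were higher in adipose-rich aortas by the definition below. For CCAAT the shares of windows, genes tested and higher genes were 33.8%, 39.9% and 44.4%, for TTGCNNAA 9.56%, 9.27% and 9.93%, and for TATAAA 12.4%, 8.39% and 7.62%. In 63 lower genes the shares were 11.1% for AGGTCA, 52.4% for CCAAT, 9.52% for TTGCNNAA and 7.94% for TATAAA. A gene with several windows has more chances of a match, so shares of windows and of genes are not alike. A match is a run of letters and not a site shown to be bound.

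The score fell from 9.83 in Ad-sham2 through 9.59 in Ad-sham3 and 9.52 in Ad-sham1 to 9.12 in Ad-FAM3A1, which are the 4 adipose-rich aortas. The adipose-poor aortas were Ad-sham6 at 8.40, Ad-FAM3A6 at 8.34, Ad-FAM3A3 at 7.76 and Ad-FAM3A5 at 7.73. The adipose-rich group therefore held 3 Ad-sham aortas and 1 labelled Ad-FAM3A, and the adipose-poor group held 1 and 3. At the upper boundary the last member lay 0.223 above Ad-FAM3A2 on the score, whereas at the lower boundary Ad-sham6 lay only 0.0248 below Ad-sham4. In all values listed below, aortas stand in this order of falling score.

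Plin1 (ENSMUSG00000030546, chr7:79720218-79732903 of GRCm38) was at 798, 812, 651 and 590.4 CPM in the adipose-rich and at 327, 341, 159.8 and 221 CPM in the adipose-poor aortas. Adipoq (ENSMUSG00000022878, chr16:23146536-23158028) was at 795, 678, 809 and 519 CPM in the adipose-rich and at 314, 328, 247 and 185 CPM in the adipose-poor aortas. Cidec (ENSMUSG00000030278, chr6:113424634-113435760) was at 1199.9, 839, 744 and 559 CPM in the adipose-rich and at 373, 306, 259 and 236 CPM in the adipose-poor aortas. No adipose-poor aorta was without adipocyte transcripts, and the groups differ in their amount by a mean fold of 2.72 for Plin1, 2.61 for Adipoq and 2.85 for Cidec. The plot of the score and its genes shows the step between the fourth and the later aortas in Plin1, and the crowding of the middle aortas against the adipose-poor group.

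**Figure D1:**
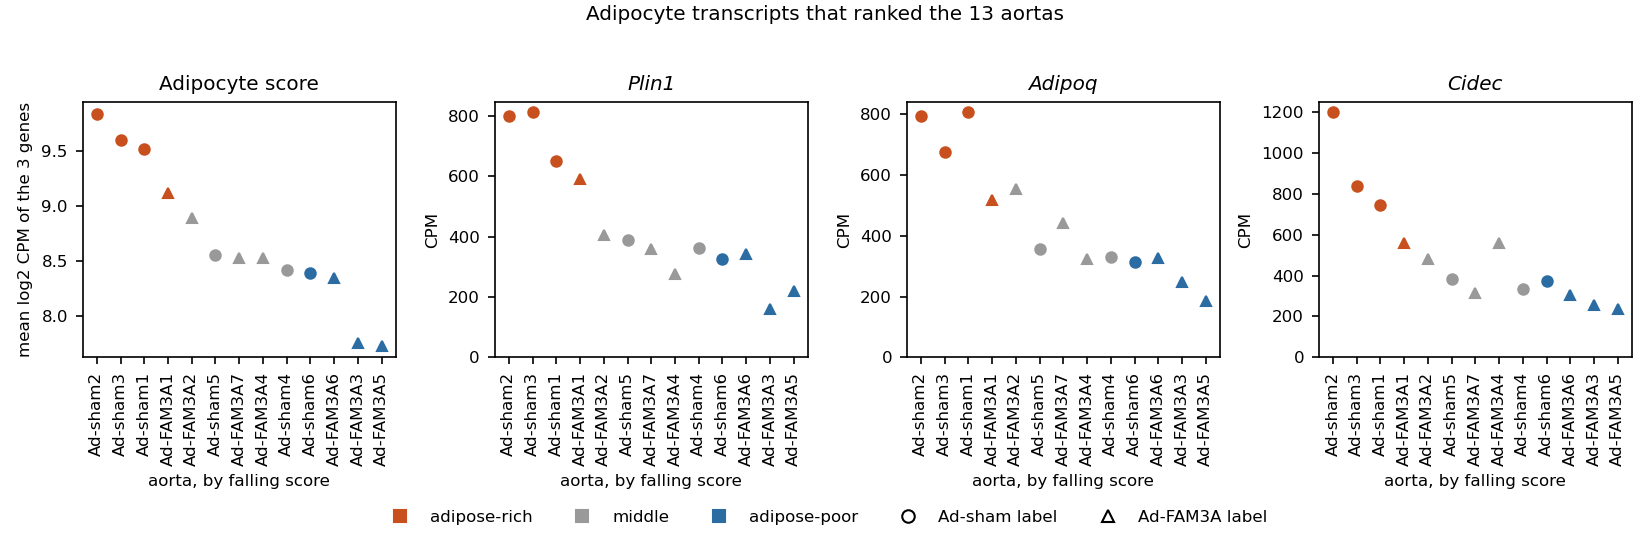
Adipocyte score (mean log2 CPM of Plin1, Adipoq and Cidec) and CPM of each gene in the 13 aortas, ordered by falling score, with colour for the group and symbol for the virus label; each point is 1 aorta. The 4 adipose-rich aortas lie between 9.12 and 9.83 on the score and the 4 adipose-poor aortas between 7.73 and 8.40.

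Outside the score's 3 genes, 15808 genes were tested. A gene was counted as higher or lower when the 4 adipose-rich and the 4 adipose-poor aortas did not overlap in log2 CPM and the fold change from edgeR's fit exceeded 2. By this definition 420 genes (2.66%) were higher in adipose-rich aortas and 98 genes (0.62%) were lower, 518 (3.28%) in all. Without the condition on fold, 1065 genes (6.74%) lay wholly above and 585 (3.7%) wholly below. The median log2 fold change over all genes tested was −0.05. Leaving out Ad-FAM3A6 and Ad-sham3 together gave 563 higher and 201 lower genes among 6 aortas, 366 of the 420 and 59 of the 98 among them.

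Genes of the white adipocyte and lipid droplet list followed the score as a group. Whether their transcripts came from white or from brown adipocytes was not tested. Of the 34 tested genes of white adipocytes and lipid droplets, 14 were higher and 0 lower, and 33 had a positive log2 fold change, with a median of 0.97 (0.83 without Ad-FAM3A6 and Ad-sham3). Gpd1, which makes the glycerol phosphate backbone of triglyceride, was at 2674, 4085, 1959 and 1292 CPM in the adipose-rich and at 723, 788, 395 and 607 CPM in the adipose-poor aortas, a log2 fold change of 1.99 ± 0.40 (SE). Cfd, the secreted protease adipsin, was at 5186, 3964, 2439.9 and 2879 CPM in the adipose-rich and at 1161, 1155, 1289 and 811 CPM in the adipose-poor aortas, a log2 fold change of 1.71 ± 0.33. Agpat2, which adds the second fatty acid to the backbone, was at 715, 558, 698 and 511 CPM in the adipose-rich and at 269, 221, 142 and 125 CPM in the adipose-poor aortas. The groups were separate in all 3, and Ad-FAM3A1 was the lowest adipose-rich aorta in Gpd1 and Agpat2. G0s2, an inhibitor of the lipase ATGL, had the largest change of the called members, from 34.7 ± 12.04 in adipose-poor to 158 ± 76.9 CPM (SD, n = 4) in adipose-rich aortas. Dgat2, Slc2a4, Fabp4, Retn, Lipe and Car3, which cover triglyceride synthesis, insulin-driven glucose uptake, fatty acid binding, resistin, hormone-sensitive lipase and carbonic anhydrase 3, were higher by 1.60, 1.59, 1.47, 1.35, 1.30 and 1.27 on the log2 scale.

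Leptin was among the genes of this list that overlapped between the groups. Lep was at 18.8, 4.99, 58.97 and 61.03 CPM in the adipose-rich and at 1.03, 14.2, 3.25 and 1.25 CPM in the adipose-poor aortas. The mean log2 fold change was the largest of the list at 2.86 ± 0.99, yet the groups overlapped, because Ad-sham3 was low and Ad-FAM3A6 was high for its group. Mest, Cav1 and Lpl, whose transcripts mark expanding adipocytes, caveolae and lipoprotein lipase, also overlapped between the groups, with log2 fold changes of −0.07, 0.37 and 0.58. Caveolin and lipoprotein lipase are made by other cells of the wall as well.

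Fatty acid synthesis was the list with the largest share of called genes: 13 of 23 tested genes were higher and 0 lower, with a median log2 fold change of 1.18 (1.07 without Ad-FAM3A6 and Ad-sham3). Fasn, the fatty acid synthase, was at 10357, 19908, 13939 and 9236 CPM in the adipose-rich and at 6665, 6403, 3066 and 5039 CPM in the adipose-poor aortas. Thrsp, a lipogenic regulator that answers to thyroid hormone, was at 1970.4, 1629, 1638 and 1339 CPM in the adipose-rich and at 586, 657, 308 and 312 CPM in the adipose-poor aortas. Acly, which supplies cytosolic acetyl-CoA, was at 1662, 3420.1, 2494 and 1787 CPM in the adipose-rich and at 1077, 924, 645 and 721 CPM in the adipose-poor aortas. For Fasn and Acly the highest value was in Ad-sham3, and for Thrsp it was in Ad-sham2. The middle aortas did not lie between the groups: Fasn was at 2306 CPM in Ad-FAM3A2, the middle aorta with the highest score, and at 2792 to 5554 CPM in the other 4 of them, and Acly was at 377 to 685 CPM in all 5, below Ad-sham6, Ad-FAM3A6 and Ad-FAM3A5 of the adipose-poor group. Acaca, the citrate carrier Slc25a1, Pgd and G6pdx of the NADPH-generating pentose phosphate pathway, and the transcription factors Srebf1 and Mlxipl were also higher, by 1.31, 1.37, 1.31, 1.07, 1.34 and 1.49. Scd1, which desaturates the products of Fasn, was the most abundant member per length in adipose-rich aortas, at 3698 RPKM (counts scaled to gene length and library size) against 1220.4 for Fasn, but it overlapped between the groups with a log2 fold change of 0.68 ± 0.52. Fads1, of polyunsaturated fatty acid synthesis, had a log2 fold change of −0.01.

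A smaller share of adipogenic transcription factors than of fatty acid synthesis genes was called. Among 21 adipogenic transcription factors 3 were higher and 0 lower, namely Cebpb, Mlxipl and Srebf1, and the median log2 fold change was 0.39, or 0.25 to 0.59 when 1 aorta was left out and 0.19 without Ad-FAM3A6 and Ad-sham3. Pparg, the receptor that directs adipocyte differentiation, was at 167, 152, 236 and 109 CPM in the adipose-rich and at 85.5, 96.3, 61.6 and 95.9 CPM in the adipose-poor aortas. The groups did not overlap, and the log2 fold change of 0.97 ± 0.26 stayed under 1. Cebpa overlapped between groups with a log2 fold change of 1.08 ± 0.42. Lipolysis and adrenergic signalling had 3 of 19 genes higher (G0s2, Lipe and the beta3 receptor gene Adrb3) with a median of 0.92, secreted products of adipocytes had 2 of 20 (Cfd and Retn) with a median of 0.54, and insulin signalling had 2 of 17 (the glucose transporter gene Slc2a4 and Irs3) with a median of 0.33, or 0.11 without Ad-FAM3A6 and Ad-sham3. The share called higher over all genes tested was 2.66%.

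Brown adipocyte transcripts followed the same axis in part. Of 33 tested genes 10 were higher and 1 was lower, with a median log2 fold change of 0.89 (0.82 without Ad-FAM3A6 and Ad-sham3, and 0.48 with the virus label as a term). Ucp1 was at 1649.9, 2193, 1286 and 613 CPM in the adipose-rich and at 594, 386, 364 and 633 CPM in the adipose-poor aortas, a log2 fold change of 1.54 ± 0.40. Ad-FAM3A1, at the edge of the adipose-rich group, lay below Ad-FAM3A5 of the adipose-poor group, so the groups overlapped. Cidea, a droplet protein of brown adipocytes, was at 980.2, 853, 477 and 352 CPM in the adipose-rich and at 198, 279, 127 and 183 CPM in the adipose-poor aortas, a log2 fold change of 1.76 ± 0.38 with no overlap. Per length, Ucp1 averaged 877 RPKM in adipose-rich and 302 RPKM in adipose-poor aortas, against 507 and 194 RPKM for Adipoq. Ucp1 and Adipoq were thus both abundant in both groups.

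The muscle-type subunits of cytochrome c oxidase that brown fat uses were higher as well. Cox7a1 was at 167, 120.5, 38.3 and 32.7 CPM in the adipose-rich and at 26.8, 28.3, 11.01 and 12.3 CPM in the adipose-poor aortas. Cox8b was at 553, 513, 295 and 210.2 CPM in the adipose-rich and at 189, 168, 79.4 and 104 CPM in the adipose-poor aortas. In both, Ad-sham2 and Ad-sham3 were far above Ad-sham1 and Ad-FAM3A1. Heart also uses these subunits and Fabp3, and without Ad-sham1, the aorta with the most cardiac transcripts, the log2 fold changes were 2.44 for Cox7a1, 1.65 for Cox8b and 1.49 for Fabp3. That leaves in Ad-sham3 and Ad-FAM3A6, the next in cardiac transcripts, and the part of heart in these genes was not tested. Otop1, Letmd1, Clstn3, Acot11, Fabp3, Esrra and Adrb3 completed the higher genes, at log2 fold changes between 1.23 and 1.57. Tmem26, used as a marker of beige adipocytes, was the lower gene, at 1.21, 0.568, 1.26 and 2.34 CPM in the adipose-rich and at 3.15, 9.11, 5.71 and 2.72 CPM in the adipose-poor aortas. Dio2, Ppargc1a and Prdm16 of the same list overlapped between the groups. The log2 fold changes were 0.12 ± 0.56 for Dio2, which activates thyroid hormone, 0.12 ± 0.31 for Ppargc1a, a coactivator of mitochondrial biogenesis, and 0.03 ± 0.45 for Prdm16, which specifies brown adipocytes. Dio2 was highest of all aortas in Ad-FAM3A5, the aorta with the lowest score, at 232 CPM.

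**Figure D2:**
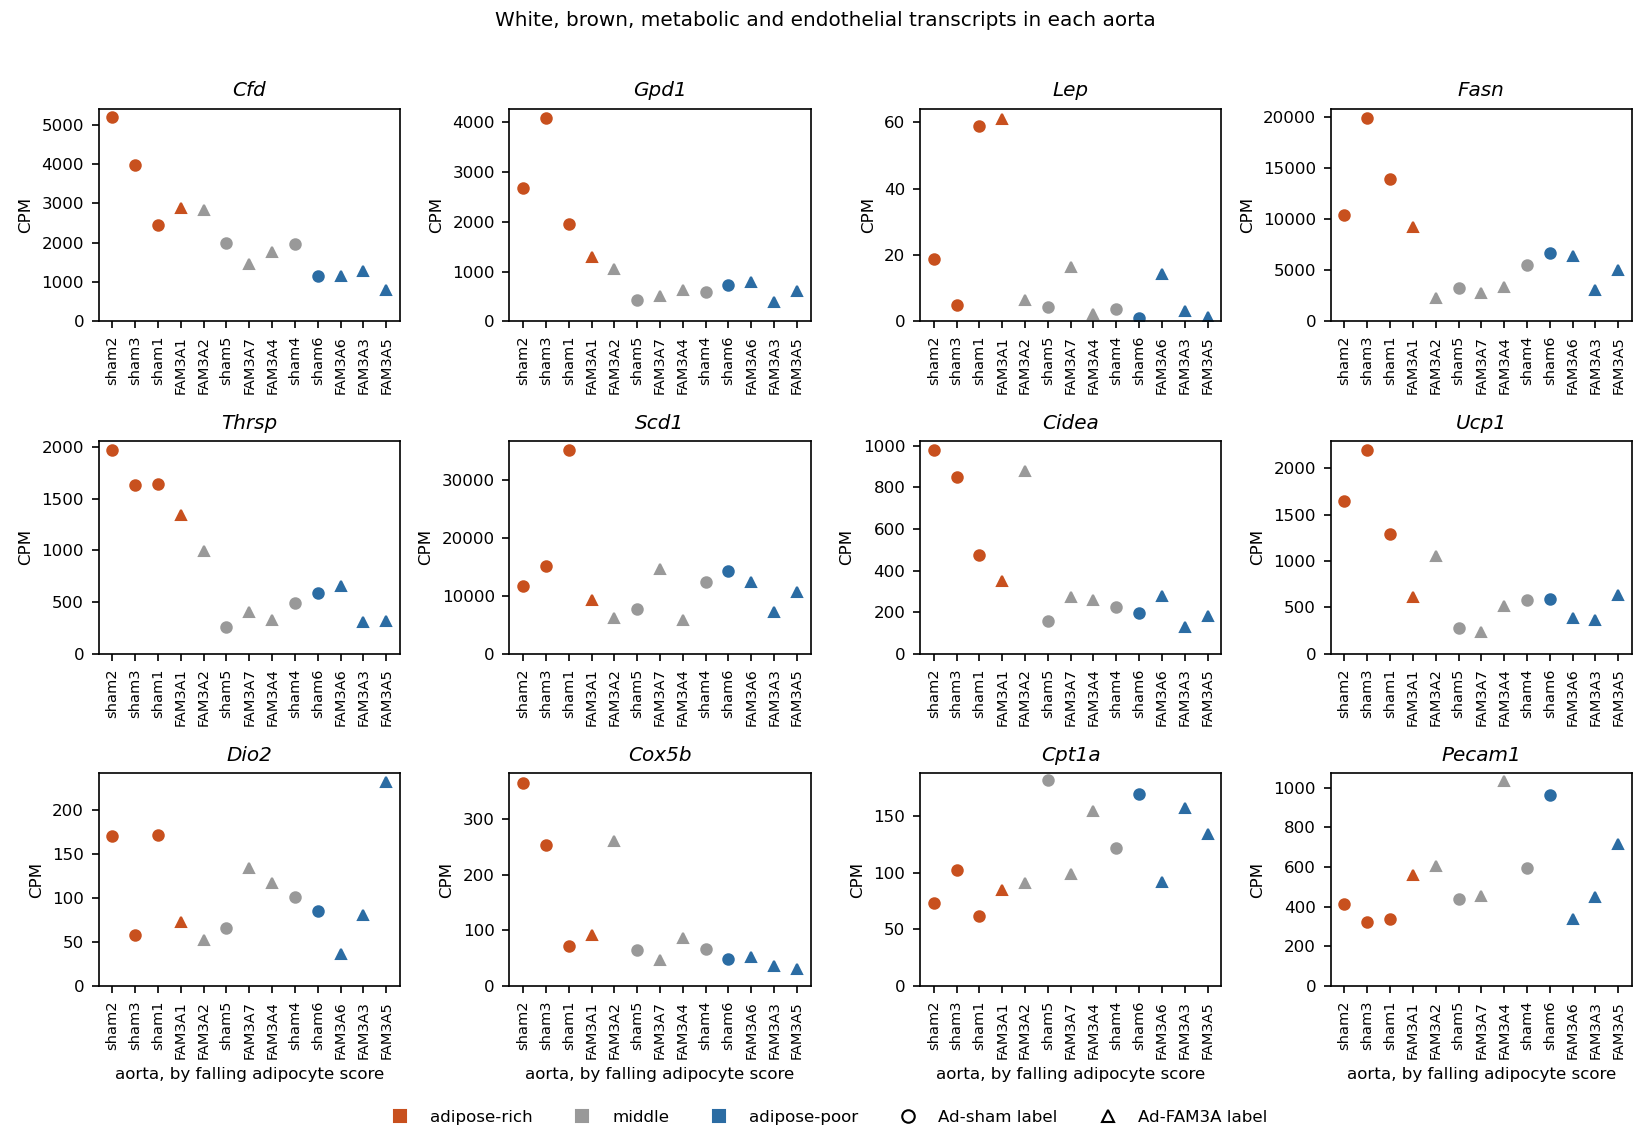
CPM of 12 genes in the 13 aortas, ordered by falling adipocyte score from left to right, with colour for the group and symbol for the virus label; each point is 1 aorta and each panel has its own axis from 0. Cfd, Gpd1, Fasn, Thrsp, Cidea and Cox5b separate the 4 adipose-rich from the 4 adipose-poor aortas, whereas Lep, Ucp1, Scd1, Dio2, Cpt1a and Pecam1 overlap.

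Genes of mitochondrial energy metabolism lay on the adipose-rich side. All 36 tested nuclear genes of the respiratory chain had a positive log2 fold change, 15 of them were called higher and 0 lower, and the median was 1.01 (1.04 without Ad-FAM3A6 and Ad-sham3, and 0.99 without Ad-sham1). Cox5b, of cytochrome c oxidase, was at 365, 252, 71.6 and 92.1 CPM in the adipose-rich and at 48.2, 52.9, 36.5 and 31.1 CPM in the adipose-poor aortas. Ndufb9, of complex I, was at 204, 138, 81.9 and 61.3 CPM in the adipose-rich and at 37.9, 41.6, 25.6 and 39.1 CPM in the adipose-poor aortas. The adipose-rich aortas were themselves divided here, with Ad-sham2 and Ad-sham3 highest. Atp5b, the catalytic subunit of ATP synthase, had a log2 fold change of 1.05 ± 0.33 and overlapped between groups, Ad-FAM3A1 being at 1619 CPM and Ad-FAM3A6 at 1805 CPM. All 22 genes of the citric acid cycle and its entry were likewise positive, with 4 higher (Sdhd, Pcx, Idh3b and Suclg1) and a median of 0.95. Fatty acid uptake and oxidation had 7 of 29 genes higher, among them Acadm, Hadha and Eci1 of beta-oxidation at 1.19, 1.17 and 1.33, and a median of 0.97.

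The carnitine genes did not all move alike. Slc25a20, the carnitine carrier of the inner membrane, was called higher at 1.13 ± 0.26, whereas Cpt1a was not called and had a negative log2 fold change. Cpt1a, the liver-type enzyme that admits long-chain fatty acids to mitochondria, was at 73.6, 103, 61.6 and 84.7 CPM in the adipose-rich and at 169, 91.5, 157 and 134 CPM in the adipose-poor aortas, a log2 fold change of −0.78 ± 0.24, and the groups overlapped through adipose-rich Ad-sham3 and adipose-poor Ad-FAM3A6. Its muscle and brown fat counterpart Cpt1b averaged 1.75 ± 1.39 CPM in adipose-rich and 0.396 ± 0.283 CPM in adipose-poor aortas, with overlap. Breakdown of branched-chain amino acids, a large consumer of these amino acids in fat, had 5 of 21 genes higher (Bckdha, Mccc2, Mcee, Mccc1 and Pcca), and 17 of the 21 lay wholly above with no condition on fold. Peroxisomal oxidation had 2 of 22 genes higher, the peroxisome proliferation gene Pex11a and the fatty acid transporter gene Abcd2, with a median of 0.63. Glycolysis had 4 of 18 genes higher (Pfkl, Hk2, Aldoa and Ldhb), with a median of 0.75. Gapdh averaged only 5.32 ± 3.24 and 3.84 ± 1.67 CPM, and since it has many near-identical pseudogene copies this level is uncertain.

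Transcripts of the mitochondrial genome did not go with the nuclear ones. Of the 13 genes 12 had a negative log2 fold change, 0 were called in either direction, and the median was −0.45 (−0.50 without Ad-FAM3A6 and Ad-sham3), which ran from −0.93 without Ad-sham1 to −0.26 without Ad-sham2. Mt-Nd5, of complex I, averaged 7350.1 ± 2656 CPM in adipose-rich and 13038 ± 1796 CPM in adipose-poor aortas with no overlap. The share of all counts on mitochondrial genes ran from 10.2% to 17.7% in adipose-rich and from 12.2% to 17.4% in adipose-poor aortas. Leaving these genes out before the normalization put Ad-sham4 in the place of Ad-FAM3A6 among the adipose-poor aortas and gave 469 higher and 94 lower genes, with 326 of the 420 and 37 of the 98 among them.

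**Figure D3:**
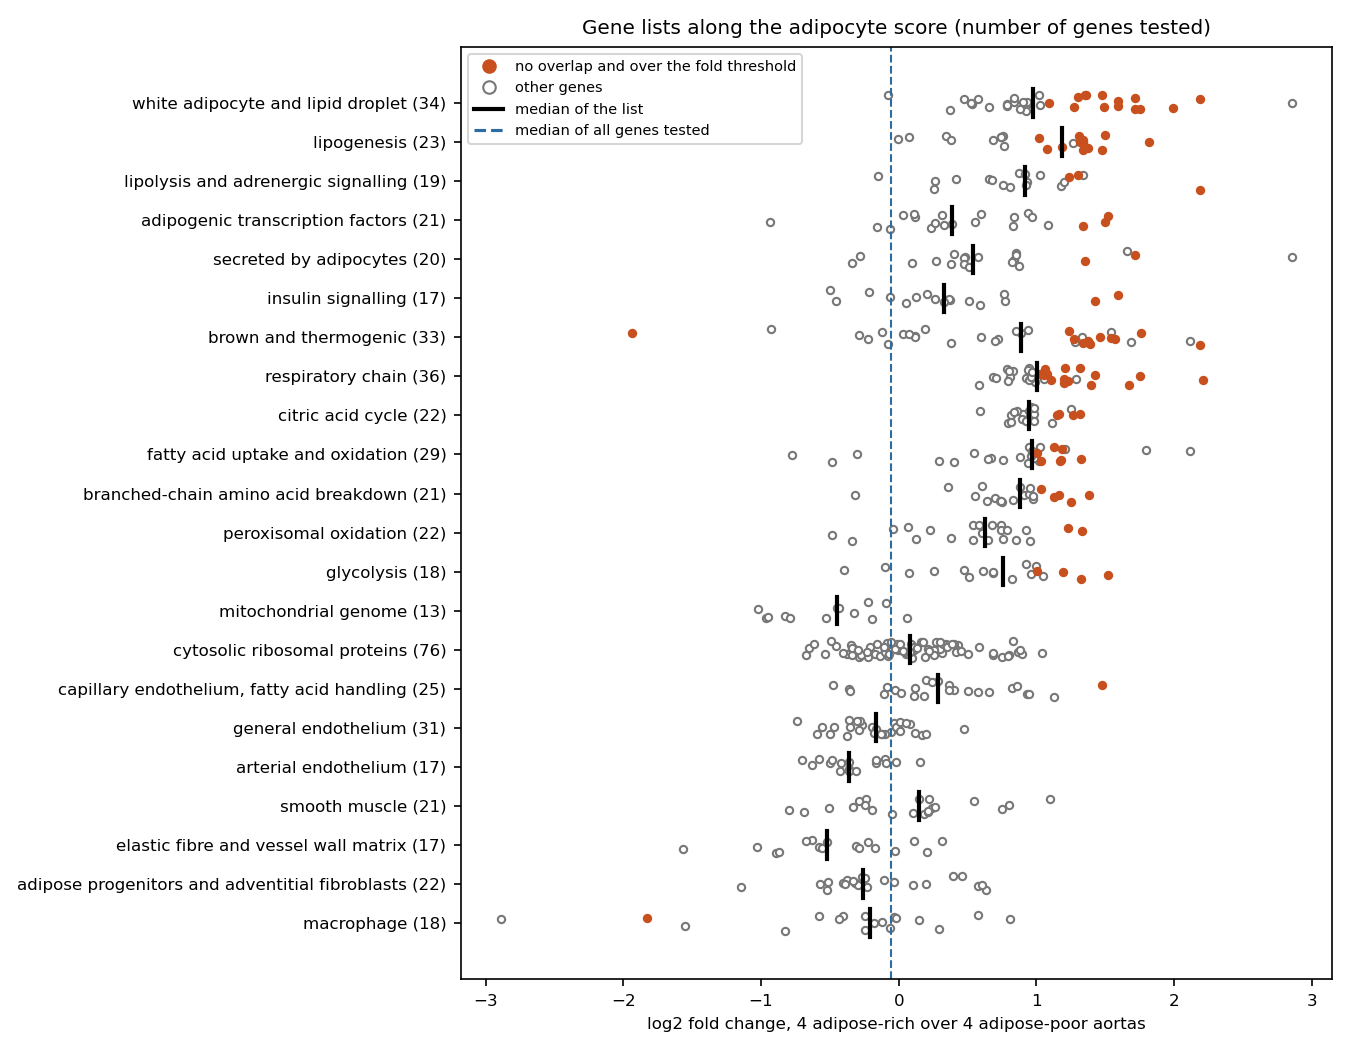
Log2 fold change, adipose-rich over adipose-poor, of each tested gene in 22 gene lists; filled points are genes that did not overlap between the groups and exceeded a fold of 2, black bars are list medians and the dashed line is the median of all genes tested (−0.05). Adipocyte and nuclear mitochondrial lists have medians between 0.33 and 1.18, while the mitochondrial genome, general and arterial endothelium and matrix lists have negative medians.

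Endothelial lists had medians of either sign. Of 31 general endothelial genes 0 were called in either direction, near the 3.28% of all genes tested, and the median log2 fold change was −0.16, or 0.078 without Ad-sham6. Pecam1, an adhesion molecule of all endothelium, was at 414, 324, 339.8 and 562 CPM in the adipose-rich and at 966, 339, 449.8 and 715 CPM in the adipose-poor aortas. Cdh5, of endothelial junctions, was at 184, 225, 205 and 269 CPM in the adipose-rich and at 317, 187, 261 and 151 CPM in the adipose-poor aortas. Both overlapped, with log2 fold changes of −0.59 ± 0.35 and −0.05 ± 0.26. Kdr, the main receptor of VEGF, had 0.48 ± 0.26, and Sox18, an endothelial transcription factor, −0.74 ± 0.30. Genes of arterial endothelium had a median of −0.36 with 16 of 17 negative, which became −0.059 without Ad-sham6 and −0.60 without Ad-FAM3A6. Genes of capillary endothelium that handle fatty acids had a median of 0.29 (0.18 without Ad-FAM3A6 and Ad-sham3) with 19 of 25 positive, and 1 was called higher: Fabp4, which adipocytes also express. Rgcc, of capillary endothelium, was at 174, 154, 157 and 121 CPM in the adipose-rich and at 96.98, 87.5, 58.2 and 71.96 CPM in the adipose-poor aortas, wholly above but with a log2 fold change of 0.95 ± 0.20. Gpihbp1, which holds lipoprotein lipase on the capillary surface, had 0.50 ± 0.24 and Tcf15, a transcription factor for fatty acid uptake, 1.13 ± 0.35, each with overlap.

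Lists of other cells of the wall had 0 or 1 gene called, where the share over all genes tested was 3.28%, so these counts lie near the background. Smooth muscle genes had a median log2 fold change of 0.14, with 0 of 21 called, and the median was −0.01 without Ad-FAM3A6 and Ad-sham3. Progenitors and adventitial fibroblasts had 0 of 22 called and a median of −0.26, or −0.15 without Ad-FAM3A6 and Ad-sham3. Elastic fibre and matrix genes had 0 of 17 called and a median of −0.52, or −0.66 without Ad-FAM3A6 and Ad-sham3. Their mean level was 7.21 to 8.19 log2 CPM in the adipose-rich aortas and 8.21, 8.55 and 8.70 in adipose-poor Ad-sham6, Ad-FAM3A3 and Ad-FAM3A5, so that Ad-FAM3A6 alone, at 6.84, made the groups overlap. Macrophage genes had a median of −0.21 (0.13 without Ad-FAM3A3) with 1 of 18 lower, Mmp12, a metalloelastase. Blood components, muscle and neighbouring organs varied strongly between aortas within each group, so the list medians of T cells (−2.89), B cells (−3.38), kidney (−2.34), liver (1.23) and cardiac muscle (0.65) rest on few libraries. The mesothelial median was 2.18, with 1.29 without Ad-sham3 and 3.18 without Ad-FAM3A6, and the groups overlapped. Of the 12 T cell genes 1 was called lower, Il7r, and of the 9 B cell, 6 kidney, 8 liver, 7 mesothelial and 6 cardiac genes 0 were called. Without Ad-FAM3A6 and Ad-sham3 the T cell median was −0.086, the B cell median 0.034, the kidney median −6.29 and the cardiac muscle median 2.94, while the cardiac median was −0.47 without Ad-sham1 and the liver median −0.26 without Ad-FAM3A1. The part of these tissues in the differences above was not tested.

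**Figure D4:**
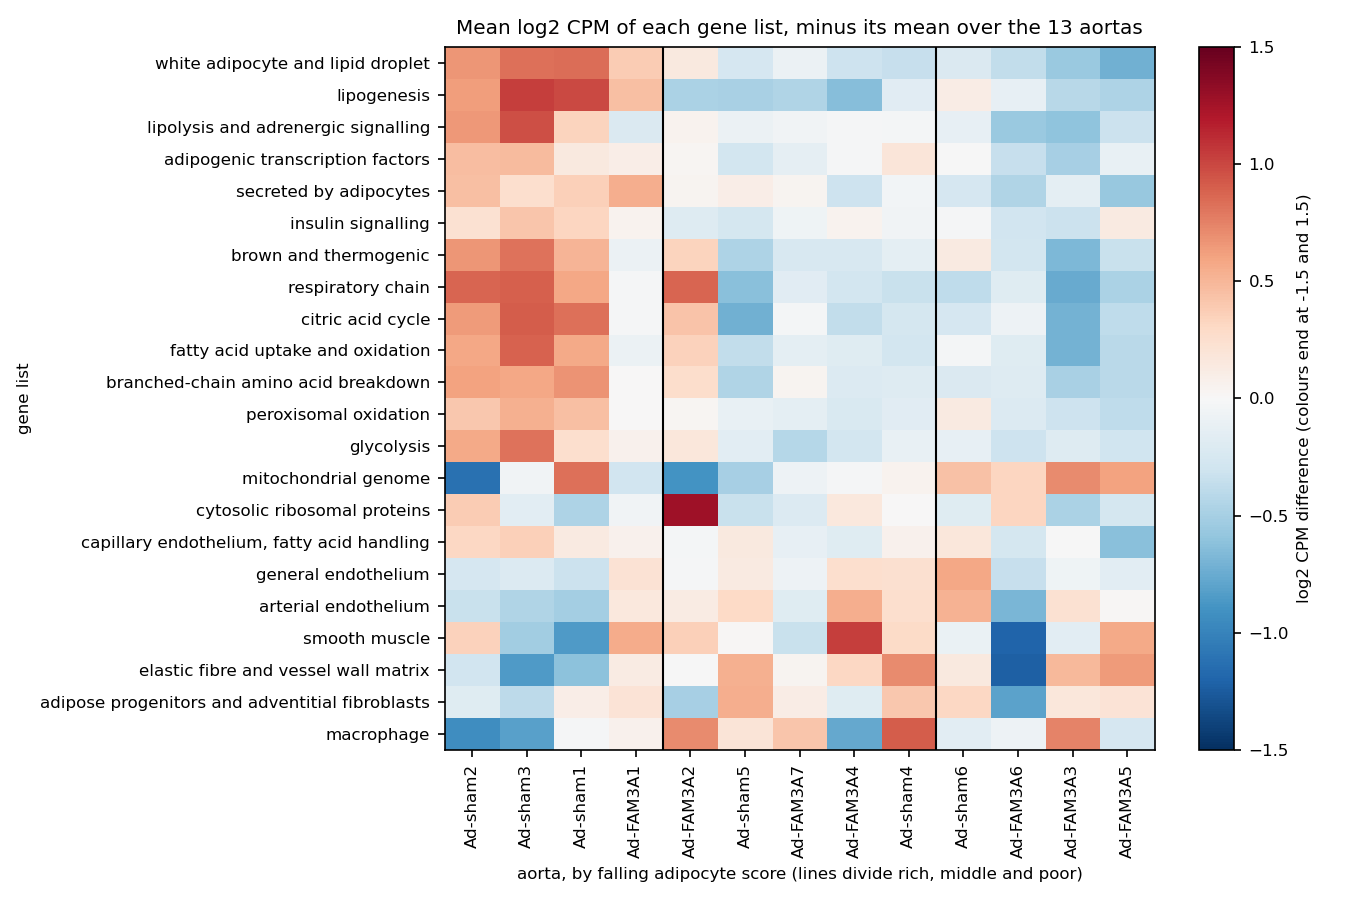
Mean log2 CPM of 22 gene lists in each aorta, as the difference from the mean of the list over the 13 aortas; columns are ordered by falling adipocyte score and lines divide the adipose-rich, middle and adipose-poor aortas. White adipocyte scores run from 7.54 to 8.0 in adipose-rich and from 6.44 to 6.95 in adipose-poor aortas, and Ad-FAM3A6 is the lowest aorta for smooth muscle (6.45) and matrix (6.84).

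Among the called genes with a mean of at least 10 CPM the largest fold was that of the predicted gene Gm11273, at 2.67 on the log2 scale. Also among the 15 highest were Uqcr11 of complex III, Cox5b, G0s2, Cox7a1, Gpd1, Thrsp and the mitochondrial ribosomal gene Mrpl12. Uqcr11 averaged 158 ± 118 CPM in adipose-rich and 28.5 ± 8.49 CPM in adipose-poor aortas. Immune genes stood beside them. Cd209f, a C-type lectin gene, was at 12.00, 16.5, 27.3 and 16.2 CPM in the adipose-rich and at 4.11, 3.18, 4.94 and 3.90 CPM in the adipose-poor aortas, and Mcpt4, a chymase of connective tissue mast cells, at 13.2, 20.2, 32.99 and 12.1 CPM in the adipose-rich and at 6.17, 5.07, 4.94 and 4.41 CPM in the adipose-poor aortas. Their log2 fold changes were 2.16 ± 0.31 and 1.93 ± 0.35. Ifi27l2a, induced by interferon, averaged 454 ± 328 against 112 ± 12.03 CPM.

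Among the 15 largest lower genes were Il7r, Bach2, Rgs1, Itga4, Mmp12, Vcam1, Nt5e and Runx1. Il7r, the interleukin-7 receptor of lymphocytes, was at 1.64, 1.83, 4.96 and 7.61 CPM in the adipose-rich and at 8.29, 127, 20.5 and 11.4 CPM in the adipose-poor aortas. Bach2, a lymphocyte transcription factor, was at 3.27, 5.17, 2.25 and 5.04 CPM in the adipose-rich and at 8.93, 46.8, 7.06 and 9.71 CPM in the adipose-poor aortas. Itga4, the integrin subunit that binds VCAM1, was at 12.8, 17.8, 24.7 and 25.5 CPM in the adipose-rich and at 30.1, 198, 31.5 and 28.3 CPM in the adipose-poor aortas. In each the extreme value was that of Ad-FAM3A6, and without this aorta the log2 fold changes were −1.74, −1.12 and −0.57 in place of −3.38, −2.20 and −1.83. Vcam1, which recruits leukocytes to the wall, was at 55.9, 41.5, 119 and 136 CPM in the adipose-rich and at 249, 281, 334 and 182 CPM in the adipose-poor aortas, and Nt5e, the ecto-enzyme that forms adenosine, at 9.09, 11.7, 12.1 and 14.9 CPM in the adipose-rich and at 34.3, 40.4, 26.8 and 24.5 CPM in the adipose-poor aortas. These differences did not rest on that aorta: the log2 fold changes were −1.57 and −1.40 with it and −1.53 and −1.25 without it. Rgs1 and Runx1, expressed in activated leukocytes, were lower by −2.17 and −1.31.

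Of 21 vasoactive and renin-angiotensin genes 1 was called higher and 1 lower, where 2.66% and 0.62% of all genes tested were. These counts lie near the background. Agt, the angiotensinogen that fat secretes, was at 19.6, 11.8, 7.07 and 17.3 CPM in the adipose-rich and at 5.01, 8.01, 3.10 and 1.47 CPM in the adipose-poor aortas, with overlap and a log2 fold change of 1.66 ± 0.52. Ptges, of prostaglandin E2 synthesis, was higher at 1.06 ± 0.24.

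Gene length and base composition moved with the same comparison. Among the 3952 genes with the shortest exonic length the median log2 fold change was 0.19 and 5.62% were called higher, against −0.24 and 0.886% among the 3952 longest. Among the 3949 genes with the lowest GC content the median was −0.27 and 0.658% were higher, against 0.15 and 4.03% among the 3949 with the highest. The shortest genes exceeded the longest, relative to their means over the 13 aortas, by 0.0289 to 0.395 log2 CPM in the adipose-rich aortas and by −0.386 to −0.154 in the adipose-poor aortas. Within the respiratory chain list, 23 of these shortest genes had a median of 1.02 and the 13 longer genes 0.97. Other lists divided by length: the median was 1.54 for 7 of the shortest and 0.65 for 26 longer brown adipocyte genes, 1.53 for 8 and 0.92 for 26 white adipocyte genes, and 1.18 for 2 and 0.33 for 19 adipogenic factors. The 76 cytosolic ribosomal protein genes, 50 of them among the shortest, had a median of 0.08 with 0 called, or 0.30 without Ad-FAM3A6 and Ad-sham3. The part of length and GC in the single genes was not tested.

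The 5 middle aortas did not enter the fold changes. Within them, 364 of the 420 higher genes (86.7%) rose with the score by the slope of a least-squares line, against 48.5% of all genes tested, and 69 of the 98 lower genes (70.4%) fell, against 51.5%. This rested on 1 aorta. Without Ad-FAM3A2 the shares were 30.7% of the higher genes against 44.9% of all, and 57.1% of the lower genes against 55.1%. Ad-FAM3A2 had the highest score of the 5 at 8.89, the highest respiratory chain score of the 5 at 8.43, the highest cytosolic ribosomal protein score of all 13 aortas at 8.79, and the largest excess of short over long genes at 0.781 log2 CPM. The other 4 middle aortas spanned only 8.42 to 8.56 on the score.

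Since the groups were unequal in virus label, the differences were taken within each label. These aortas had been selected on adipocyte genes whatever their label. Adipocyte lists that are higher within a label therefore follow from the selection. For white adipocyte genes the mean of the adipose-rich aortas exceeded that of the adipose-poor by 0.99 log2 CPM within Ad-sham (3 against 1) and by 0.92 within the aortas labelled Ad-FAM3A (1 against 3). Fatty acid synthesis genes differed by 0.78 and 0.78. Brown adipocyte genes differed by 0.52 and 0.34. Respiratory chain genes differed by 1.16 and 0.46, and citric acid cycle genes by 1.04 and 0.37. All 5 lists were higher in the adipose-rich aortas of either label, whereas general endothelial genes differed by −0.84 and 0.41, smooth muscle genes by −0.25 and 0.82, arterial endothelial genes by −0.95 and 0.31, matrix genes by −0.73 and 0.16, and progenitors and adventitial fibroblasts by −0.47 and 0.34. Of the 4 aortas compared within the Ad-FAM3A label, Ad-FAM3A6 was the lowest in each of these lists, and outside general endothelium Ad-FAM3A1 was above both Ad-FAM3A3 and Ad-FAM3A5 in none. For matrix genes Ad-FAM3A1 was at 8.19, against 8.55 in Ad-FAM3A3, 8.70 in Ad-FAM3A5 and 6.84 in Ad-FAM3A6. Arterial endothelial genes were at 5.44 in Ad-FAM3A1, against 5.51, 5.30 and 4.59, progenitors and adventitial fibroblasts at 7.35, against 7.32, 7.36 and 6.34, and smooth muscle genes at 8.21, against 7.51, 8.23 and 6.45.

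The score itself was compared between the virus labels, which it does not use. Its mean over the 6 Ad-sham aortas was 9.05 with an SD of 0.66, and over the 7 labelled Ad-FAM3A it was 8.42 with an SD of 0.52, a difference of −0.64 with p = 0.0793 by a two-sided exact permutation test over all 1716 splits. Of the 7 aortas labelled Ad-FAM3A 6 were below the Ad-sham median. The difference was not past the threshold of 0.05. Leaving out Ad-sham4 or Ad-sham6 gave exact permutation p = 0.0467 and 0.0455. No other single aorta left out brought it under 0.05, and without Ad-sham1 the difference was −0.55 with exact permutation p = 0.158.

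The comparison of the virus labels was then fitted with and without the score. Without it, the median log2 fold change of white adipocyte genes, Ad-FAM3A label over Ad-sham, was −0.55 with 32 of 34 lower, and with the score as a covariate the median was −0.03 with 18 of 34 lower. The medians changed from −0.76 to −0.23 for fatty acid synthesis, from −0.52 to −0.09 for brown adipocyte genes, from −0.49 to 0.06 for fatty acid oxidation, from −0.44 to 0.14 for the citric acid cycle and from −0.37 to 0.30 for the respiratory chain, where 36 of 36 genes were lower without the score and 2 of 36 with it. The score is a mean of adipocyte genes and was lower on average under the Ad-FAM3A label. Lists that follow it shift upward in this fit by construction, so the shift says nothing about the virus. Over all genes tested the median was 0.00 in the fit without the score and 0.01 in the fit with it. With the quasi-likelihood test of edgeR, adjusted by Benjamini-Hochberg, no gene had an adjusted p under 0.05 and a fold above 2 in either fit: 0 genes passed without the score, with 932 at an unadjusted p under 0.05 and a smallest adjusted p of 0.810, and 0 passed with it, with 530 and 0.981. DESeq2 called 3 genes without the score and 1 with it. The adipocyte score was lower on average under the Ad-FAM3A label, a difference not past the threshold. The parts of score and label in the differences between labels cannot be told apart where they coincide.

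**Figure D5:**
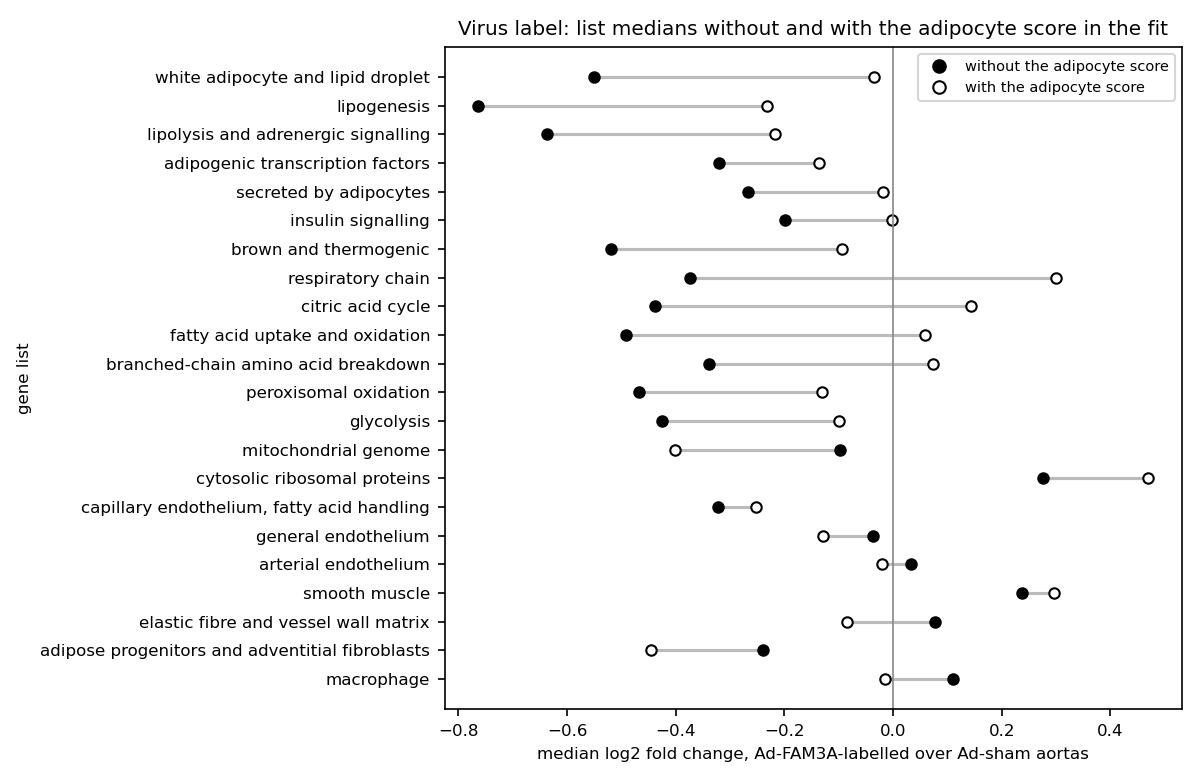
Median log2 fold change of 22 gene lists in the 7 aortas labelled Ad-FAM3A over the 6 Ad-sham aortas; filled points come from the fit without the adipocyte score, open points from the fit with it, and a line joins both. White adipocyte genes go from −0.55 to −0.03 and respiratory chain genes from −0.37 to 0.30. The score is a mean of adipocyte genes, so a shift of lists that follow it is built into the fit.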

How the data were processed

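RNA of 13 aortas was sequenced by the authors, who aligned the reads to GRCm38 with Hisat2 and deposited whole-number counts per Ensembl gene from FeatureCounts, without normalization. The deposited FPKM columns are the authors' means per virus label and were not used. The strand setting and the treatment of reads shared between genes are not given in the sources used here, which leaves levels uncertain wherever genes overlap or have near-identical copies. Counts were normalized by TMM in edgeR 4.0.16 under R 4.3.3, genes were kept by filterByExpr with the virus labels as groups, and log2 CPM used a prior count of 2. Of 54532 genes, 30782 had a count in any aorta and 15808 were tested besides the 3 of the score.

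Log2 fold changes between the 4 highest and 4 lowest aortas came from glmQLFit, with the SE as the change divided by the square root of F, and no p was taken from them. The virus labels were compared by glmQLFTest with Benjamini-Hochberg adjustment, and by DESeq2 1.42.0 as an alternative. Other normalizations, filters, group sizes, a score from Lipe, Lep and Plin4, a virus term, and leaving out each aorta were also tried. Leaving out Ad-FAM3A6 and Ad-sham3 together, normalizing without mitochondrial genes, and leaving Ad-FAM3A2 out of the middle aortas were chosen after seeing the data. Replicates are separate aortas by their labels. Scripts were tested on simulated data.

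The aortas, the gene lists and the tests were chosen with earlier results of these data known. Genes that may be named are the score's 3, all genes of the lists, and the 15 in each direction with the largest fold change among those called with a mean of at least 10 CPM over the 8 aortas. All listed genes were found in the table. The result of 1 listed gene is not reported here. Where a list is counted, the genes kept by the filter are meant. Promoter windows were taken from RefSeq on GRCm38.p6, the assembly of the deposited coordinates, and GC content was known for 99.9% of genes.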

Additional observations from a re-analysis of the deposited data

Results flagged for a closer look

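Among 273 groups of values examined (96 genes and 39 gene lists in the adipose-rich and in the adipose-poor aortas, and the score in 3 groups), 10 held 1 aorta far from the others by Dixon's criterion, and 13.7 would be flagged if each did so in 1 of 20 cases by chance. In the adipose-rich group the low aorta was Ad-FAM3A1 each time, in log2 CPM, with 6.60 for G6pdx (the others 7.16 to 7.24), 3.53 for Elovl3 (5.05 to 5.33), 10.66 for Atp5b (11.65 to 11.85), 9.17 for Acadm (10.15 to 10.31), 6.48 for Pcca (7.35 to 7.51) and 6.26 for the mean of branched-chain amino acid breakdown (6.83 to 6.93). In the adipose-poor group the aorta was Ad-FAM3A6 each time, with 5.55 for Bach2 (2.84 to 3.30), 7.63 for Itga4 (4.83 to 4.98), 5.01 for the cardiac muscle mean (1.66 to 1.87) and 6.34 for the mean of adipose progenitors and adventitial fibroblasts (7.32 to 7.46).

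Among 135 genes and lists, 7 differed in opposite directions within the 2 virus labels, with every aorta on its side, though each label offers only 1 aorta in 1 of the groups and the difference was not tested. Adipose-rich minus adipose-poor in log2 CPM was −0.64 within Ad-sham and 0.47 within the aortas labelled Ad-FAM3A for Cdh5, −1.52 and 0.89 for Vwf, −0.84 and 0.41 for general endothelium, −0.59 and 0.94 for Schwann cells, −1.53 and 4.09 for liver, −0.34 and 0.66 for Hox genes, and −0.51 and 0.68 for vasoactive and renin-angiotensin genes.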

How the results depend on the processing

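The count of higher and lower genes depended on how many aortas stood on each side: 882 and 283 with 3 against 3, 276 and 44 with 5 against 5, and 33 and 6 with 6 against 6. It was 248 higher with a virus term, 675 and 174 with no filter on low counts, 51 lower with at least 10 counts in every aorta, where Ad-sham4 also replaced Ad-sham6 among the adipose-poor aortas, and 1065 and 585 with any fold. Leaving out 1 aorta gave 361 to 725 higher and 106 to 279 lower genes, and leaving out Ad-FAM3A6 and Ad-sham3 together gave 201 lower genes. White adipocyte genes had a median log2 fold change of 1.27 with 3 against 3 and 0.74 with a virus term, brown genes 0.48 with a virus term, fatty acid synthesis 0.86 with 6 against 6 and 0.90 with a virus term, and insulin signalling 0.11 without Ad-FAM3A6 and Ad-sham3. Lists of other tissues depended on single libraries. Leaving out 1 aorta, the median ran from −5.92 to −1.83 for kidney, −3.30 to −0.026 for T cells, −3.78 to 0.13 for B cells, −0.47 to 2.83 for cardiac muscle and −0.26 to 2.61 for liver, the sign changing without Ad-FAM3A6 for B cells, without Ad-sham1 for cardiac muscle and without Ad-FAM3A1 for liver. Without Ad-FAM3A6 and Ad-sham3 together these medians were −6.29, −0.086, 0.034 and 2.94. B cells were at 0.29 and cardiac muscle at 2.85 with library totals, 0.25 and 2.86 with the score from Lipe, Lep and Plin4, and liver at 2.88 with the upper quartile. These settings also changed the aortas compared: Ad-sham4 took the place of Ad-FAM3A6 with library totals and with the other score, and of Ad-sham6 with DESeq2 size factors and the upper quartile. How much of each change came from the aortas and how much from the scaling was not tested. Of 648 list medians recomputed (36 lists under 18 alternatives), 59 turned sign, in 13 lists: B cell, Schwann cell, cardiac, skeletal and smooth muscle, ribosomal protein, general and lymphatic endothelium, liver, macrophage, red blood cell, sympathetic neuron and vasoactive. With DESeq2 size factors skeletal muscle went from −0.79 to 0.38, sympathetic neurons from −0.29 to 0.15 and smooth muscle from 0.14 to −0.11. Without Ad-FAM3A6 and Ad-sham3 together skeletal muscle was at −0.37 and sympathetic neurons at −1.15. The other 23 lists, those of adipocytes and nuclear mitochondrial genes among them, had the same sign throughout.

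In the middle aortas, the 2 highest minus the 2 lowest gave 81.2% of higher genes rising (51.9% of all) and 54.1% of lower genes falling (48.1% of all). DESeq2 size factors gave 81.1% and 52.3%, where 48.5% of all genes rose and 51.5% fell in the main setting. Without Ad-FAM3A2 the shares were 30.7% (44.9%) and 57.1% (55.1%). In log2 CPM, the difference in score between the virus labels was −0.77 to −0.48 when 1 aorta was left out, past the threshold without Ad-sham4 (−0.76) or Ad-sham6 (−0.77). DESeq2 called 3 genes by virus label without the score and 1 with it. Replicate numbers did not pair the aortas: correlations of deviations between aortas of the same number ran from −0.33 to 0.45. With the replicate block the score differed by −0.66 (exact sign-flip permutation p = 0.0938) and edgeR called 0 genes in either fit, with 621 and 409 at an unadjusted p under 0.05. At this depth genes under about 0.2 CPM could not be compared.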
